A study of Homo sapiens with 12 samples.

Results

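The experiment described here is the Axl dependence of the transcriptional response to Rego (Regorafenib) resistance, read as an interaction between drug resistance and Axl status. For each gene the Rego effect, the mean log2 value of resistant libraries minus that of control libraries, was taken in SNU449 cells and in SNU449-Axl- cells, and the effect in SNU449-Axl- was subtracted from that in SNU449. A positive difference thus stands for a gene that rose more, or fell less, in the Axl-expressing line. Genes were not chosen by their values: all 15601 of the 15633 entries of the table holding both backgrounds were tested, the 32 spike-in RNAs being left out, over all 12 libraries of the study.

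SNU449 is an established human hepatocellular carcinoma (HCC) line, and SNU449-Axl- is its derivative in which CRISPR removed Axl. Control cells of either line carried no Rego resistance, and resistant cells had been started at 50% of the IC50 and taken to 2 times the IC50 by increments of 50% every 2 weeks. Polyadenylated RNA was read from the 3′ end with QuantSeq, in 3 libraries for each of 4 groups: SNU449 control, Rego-resistant SNU449, SNU449-Axl- control and Rego-resistant SNU449-Axl-. Resistant cells stayed under drug after each splitting, so drug presence and acquired resistance cannot be told apart. Each group is 1 cell population read as technical triplicates, so p-values measure the spread between libraries and not between independently derived lines. Effects of Axl loss, of the knockout derivation and of each separate resistance selection cannot be told apart either. Depth per library is unknown, since the deposited values are normalized. The authors also corrected values for the preparation date, which is not given for each library in the sources used here.

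AXL is a receptor tyrosine kinase that binds the ligand GAS6 and signals through the PI3K and MAPK pathways to support survival and motility, and in liver cancer it is tied to a mesenchymal-like state. Regorafenib inhibits several kinases, among them VEGF and PDGF receptors, KIT, RET and RAF. Cells that outlive such inhibitors often change growth factor supply, matrix, antioxidant enzymes and inflammatory programmes.

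The group labels were checked on AXL (ENSG00000167601.12, chr19:41219223-41261766, GRCh38), whose levels, given as log2 of the deposited library value throughout, were 9.51, 9.88 and 9.48 (SNU449 control), 10.27, 9.67 and 10.31 (resistant SNU449), 5.13, 5.73 and 5.04 (SNU449-Axl- control) and 5.64, 5.25 and 5.70 (resistant SNU449-Axl-). All 6 SNU449-Axl- libraries lay far below all 6 SNU449 libraries, and resistant and control libraries overlapped in either line. AXL thus checks the line and not the labels control and resistant, which no marker checked. An exchange of these labels within SNU449-Axl- would reverse the sign of every effect in that line. The paper reports slower proliferation of Rego-resistant cells of both lines, measured without drug. As labelled, the median effects of the DNA replication and mitosis lists were below 0 in both lines and MMP7 rose in both, as given below. Control and resistant libraries overlapped in both lists and in either line, so these medians do not check the labels. The Rego effects on AXL were 0.46 in SNU449 and 0.23 in SNU449-Axl-, and their difference of 0.23 (95% interval −0.47 to 0.94, adjusted p 0.775) was not called. The markers of a mesenchymal-like liver cancer cell (VIM, CDH2, FN1, AXL) were all in the table, led by VIM, an intermediate filament gene with a mean normalized count of 18900. Of 5 hepatocyte markers only APOA1 was present, at a mean normalized count of 1.14, with ALB, TTR, SERPINA1 and HNF4A missing, and 28 of 74 listed hepatocyte and plasma protein genes were tested. None of 4 endothelial markers was present, and 3 of 7 leukocyte markers were, the most abundant being CD68 at 6.19. Of 6 hepatic stellate or fibroblast markers 4 were present, led by COL1A2 at 1060, with PDGFRA and DCN missing. Their summed values were 1554, 1141 and 1452 (SNU449 control), 2379, 2663 and 2324 (resistant SNU449), 1294, 2769 and 3145 (SNU449-Axl- control) and 900, 960 and 990 (resistant SNU449-Axl-). Of 4 cholangiocyte markers KRT7, at 431, and SOX9 were present, with KRT19 and EPCAM missing. Their sums were 326, 256 and 271, then 1125, 652 and 1164, then 364, 1123 and 810, and last 1020, 800 and 872 in the same order of groups. The part of such cells in the results was not tested.

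Of 15601 genes, 916 (5.87%) had Rego effects that differed between the backgrounds at a Benjamini-Hochberg adjusted p under 0.05, 461 (2.95%) with a higher and 455 (2.92%) with a lower effect in SNU449. Such genes are named called below. The Rego effect itself was called for 1220 genes (7.82%) in SNU449, 674 up and 546 down, and for 674 genes (4.32%) in SNU449-Axl-, 393 up and 281 down. Of the 916 genes, 439 had a called effect in SNU449 only, 231 in SNU449-Axl- only, 164 in neither line, and 10 moved the same way in both but by different amounts. In 72 genes (0.462%) both effects were called and ran in opposite directions, with 30 up in SNU449 and down in SNU449-Axl- and 42 the reverse. After centring on spike-in RNAs, which lowered the median difference of all genes by 0.18, the split was 228 higher and 669 lower, and 11 and 55 among 66 opposite genes. Group differences in RNA per cell and in the share of cells that express a gene cannot be told apart in bulk libraries.

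**Figure D1:**
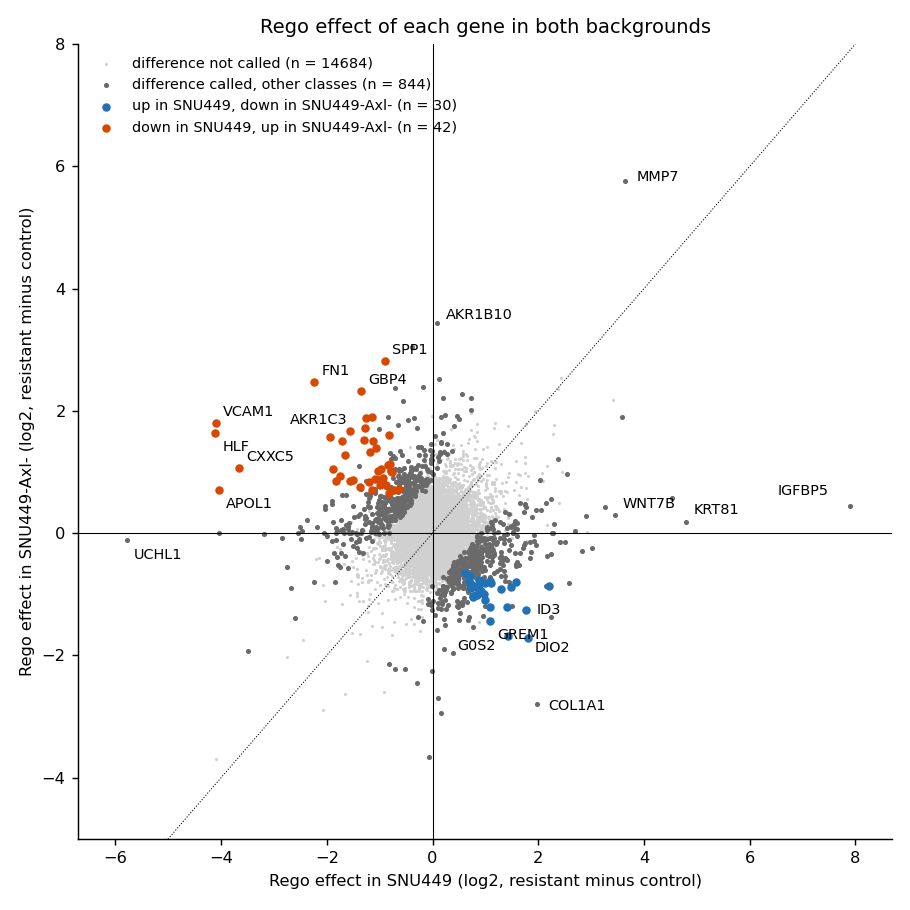
Rego effect of each of 15601 genes in SNU449 (x axis) and SNU449-Axl- (y axis), as log2 of resistant over control, with the dotted line marking equal effects. The 72 genes called in opposite directions are coloured, 30 in the lower right and 42 in the upper left.

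The counts leaned on the replicate block and on several libraries. With no replicate block 1827 genes were called and 195 were opposite. The deposited values hold almost no variation between replicate numbers, so a fit with no block overstates its residual degrees of freedom. It has 8 of these against 6 with the block, and its p-values are too small. Without all 4 libraries of replicate number 1 they numbered 223 and 14, and of replicate number 2 112 and 7. Without replicate 2 of SNU449-Axl- control 531 genes were called and 24 were opposite, without replicate 1 of resistant SNU449-Axl- 581 and 30, and without replicate 2 of that group 522 and 22. Genes up in SNU449 and down in SNU449-Axl-, 30 over all libraries, then numbered 7, 8 and 3. Those of the reverse pattern, 42 over all libraries, numbered 17, 22 and 19. Without replicate 1 of resistant SNU449 the opposite genes numbered 43. Rego effects in SNU449-Axl- were called for 242 genes without replicate 2 of its control, and for 306, 205 and 362 without replicates 1, 2 and 3 of its resistant cells. Those in SNU449 were called for 738 without replicate 2 of its control. Without replicates 2 and 3 of resistant SNU449 they were called for 780 and 739, and in the latter case SNU449-Axl- had more, with 787. Genes given below with full values kept their call in every omission of a single library unless stated otherwise. That call is the one of the difference, so a gene named opposite need not stay opposite in each omission.

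The levels behind the opposite effects are described here. Effects of opposite sign fix how the gap between the lines changed, but not which line was higher in control or in resistant cells. All 30 that rose in SNU449 and fell in SNU449-Axl- had a higher mean in SNU449-Axl- control than in SNU449 control, and 29 of them a lower mean in resistant SNU449-Axl- than in resistant SNU449. All 42 genes with the reverse pattern had a lower mean in SNU449-Axl- control and a higher one in resistant SNU449-Axl-. How far the levels moved differed by gene, as SNU449-Axl- control lay beside resistant SNU449 for FN1 and between the SNU449 groups for HLF.

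Matrix and adhesion genes held some of the largest opposite effects. FN1 (ENSG00000115414.21, chr2:215360440-215436073) encodes fibronectin, the main adhesive glycoprotein of the provisional matrix, and had levels of 11.28, 10.49 and 11.51 (SNU449 control), 8.39, 8.82 and 9.34 (resistant SNU449), 9.13, 8.56 and 8.85 (SNU449-Axl- control) and 11.31, 12.24 and 10.40 (resistant SNU449-Axl-). SNU449 control and resistant SNU449-Axl- were high, the other 2 groups were low, and high and low libraries did not overlap. The Rego effects were −2.24 in SNU449 and 2.47 in SNU449-Axl-, with a difference of −4.71 (95% interval −5.80 to −3.63, adjusted p 3.51e-05). SPP1, the secreted integrin ligand osteopontin, had 10.50, 9.67 and 9.76 (SNU449 control), 8.61, 9.17 and 9.44 (resistant SNU449), 9.11, 8.60 and 8.95 (SNU449-Axl- control) and 11.42, 12.21 and 11.50 (resistant SNU449-Axl-). Here resistant SNU449-Axl- stood above every other library, and the fall in SNU449 was small, with effects of −0.90 in SNU449 and 2.82 in SNU449-Axl- and a difference of −3.72 (95% interval −4.53 to −2.91, adjusted p 1.88e-05). The effect in SNU449 had an adjusted p of 0.0495, at the edge of the threshold.

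VCAM1, a membrane adhesion molecule that binds leukocyte integrins, had levels of 9.10, 9.12 and 10.88 (SNU449 control), 5.46, 6.09 and 5.25 (resistant SNU449), 5.86, 5.04 and 5.25 (SNU449-Axl- control) and 7.44, 7.62 and 6.49 (resistant SNU449-Axl-). It was high in all SNU449 control libraries, low in resistant SNU449 and SNU449-Axl- control, and intermediate in resistant SNU449-Axl-. Effects were −4.10 in SNU449 and 1.80 in SNU449-Axl-, and the difference was −5.91 (95% interval −7.10 to −4.71, adjusted p 8.61e-06). ADAMTS9, a secreted protease of the proteoglycan versican, showed 6.04, 5.49 and 5.49 (SNU449 control), 4.39, 4.52 and 4.32 (resistant SNU449), 4.39, 4.75 and 4.32 (SNU449-Axl- control) and 6.07, 6.23 and 6.82 (resistant SNU449-Axl-), with effects of −1.26 and 1.88 in the same order of lines and adjusted p 1.88e-05 for the difference. Its 2 low groups lay near the floor of the scale, where the deposited values bottom out at 12, so folds there are understated.

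Of the 32 tested matrix proteins outside the collagens, 14 were called (of 51 listed, with 5.87% of all genes called), 4 higher and 10 lower in SNU449. Median effects in that list were 0.15 in SNU449 and −0.01 in SNU449-Axl-, against 0.00 and 0.01 over all genes. The median difference was −0.16, below 0 under every scaling, but 0.12 without replicate 1 of SNU449 control and 0.00 outside chromosomes 4, 9 and 19. THBS2, an antiangiogenic thrombospondin, had 10.16, 10.25 and 10.10 (SNU449 control), 7.96, 7.77 and 8.68 (resistant SNU449), 8.92, 8.30 and 8.52 (SNU449-Axl- control) and 8.81, 9.54 and 8.56 (resistant SNU449-Axl-). It fell in SNU449 with no overlap, and the SNU449-Axl- groups overlapped, the effects being −2.03 and 0.39 (adjusted p of the difference 8.24e-04). TNC, tenascin C, a matrix glycoprotein of wounds and tumours, had effects of −1.25 and 0.85 (adjusted p 0.00118), and MATN2, an adaptor protein of matrix filaments, −1.20 and 0.84 (adjusted p 8.48e-04). GPC3, a membrane proteoglycan used as a liver cancer antigen, rose in SNU449-Axl- only, with −0.29 and 1.72 (adjusted p 0.00249).

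Of 34 tested genes of collagens and collagen processing (48 listed), 4 were called (11.8%, against 5.87% of all genes), all higher in SNU449, and 25 of 34 differences lay above 0. Medians were 0.23 in SNU449 and −0.16 in SNU449-Axl- with a median difference of 0.31, which stayed above 0 under every scaling and was 0.13 after spike-in centring. COL5A2, a chain of the type V collagen that nucleates fibrils, had 9.63, 9.55 and 9.23 (SNU449 control), 10.18, 10.38 and 10.34 (resistant SNU449), 10.49, 10.41 and 10.32 (SNU449-Axl- control) and 9.27, 9.23 and 9.70 (resistant SNU449-Axl-). Resistant SNU449 and SNU449-Axl- control shared the higher range, SNU449 control and resistant SNU449-Axl- the lower one, and these ranges did not overlap. Its effects were 0.83 in SNU449 and −1.01 in SNU449-Axl-, with a difference of 1.84 (95% interval 1.27 to 2.40, adjusted p 4.97e-04). COL1A1, the main chain of type I collagen, had 8.50, 7.80 and 5.46 (SNU449 control), 9.43, 8.50 and 9.78 (resistant SNU449), 8.96, 11.04 and 11.22 (SNU449-Axl- control) and 7.60, 7.17 and 8.04 (resistant SNU449-Axl-). Replicate 3 of SNU449 control was far below the other 2 of its group and replicate 1 of SNU449-Axl- control below its own, so the difference of 4.78 (95% interval 2.96 to 6.60, adjusted p 0.00273) came with wide spread. Only the effect in SNU449-Axl-, −2.80, was called by itself (adjusted p 0.0134). COL11A1, a chain of a minor fibrillar collagen, was above 6.5 in SNU449-Axl- control alone and fell there on resistance with an effect of −2.94 (adjusted p of the difference 0.00582). Without replicate 1 of SNU449-Axl- control 6 genes of the list were called, and without replicate 2 of SNU449 control 3.

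Receptors for matrix followed neither group as a whole. Of 26 laminin and integrin genes 4 were called (15.4%, against 5.87% of all genes), all higher in SNU449. The median difference of the list was 0.00 and turned negative after upper-quartile rescaling, spike-in centring and in the second 12-library table. ITGA5, the alpha chain of the fibronectin receptor, had 6.02, 6.34 and 6.21 (SNU449 control), 5.43, 5.25 and 5.43 (resistant SNU449), 6.71, 6.66 and 6.27 (SNU449-Axl- control) and 4.39, 4.25 and 4.58 (resistant SNU449-Axl-). It fell in both lines without overlap, more in SNU449-Axl-, where fibronectin rose, with effects of −0.82 and −2.14 (adjusted p of the difference 0.00872). ITGB5, a beta chain of vitronectin receptors, moved by 1.16 and −0.65 and the laminin-332 chain LAMB3 by 0.29 and −1.17 (adjusted p 0.0021 and 0.0055). MMP7, the matrix protease matrilysin, had 5.83, 5.49 and 4.91 (SNU449 control), 8.97, 8.80 and 9.41 (resistant SNU449), 5.49, 5.46 and 6.07 (SNU449-Axl- control) and 11.27, 11.83 and 11.20 (resistant SNU449-Axl-). The libraries of control and resistant cells were widely apart in either line, levels rose in both, and the rise was larger without Axl, 5.76 against 3.65 (adjusted p of the difference 0.00222).

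**Figure D2:**
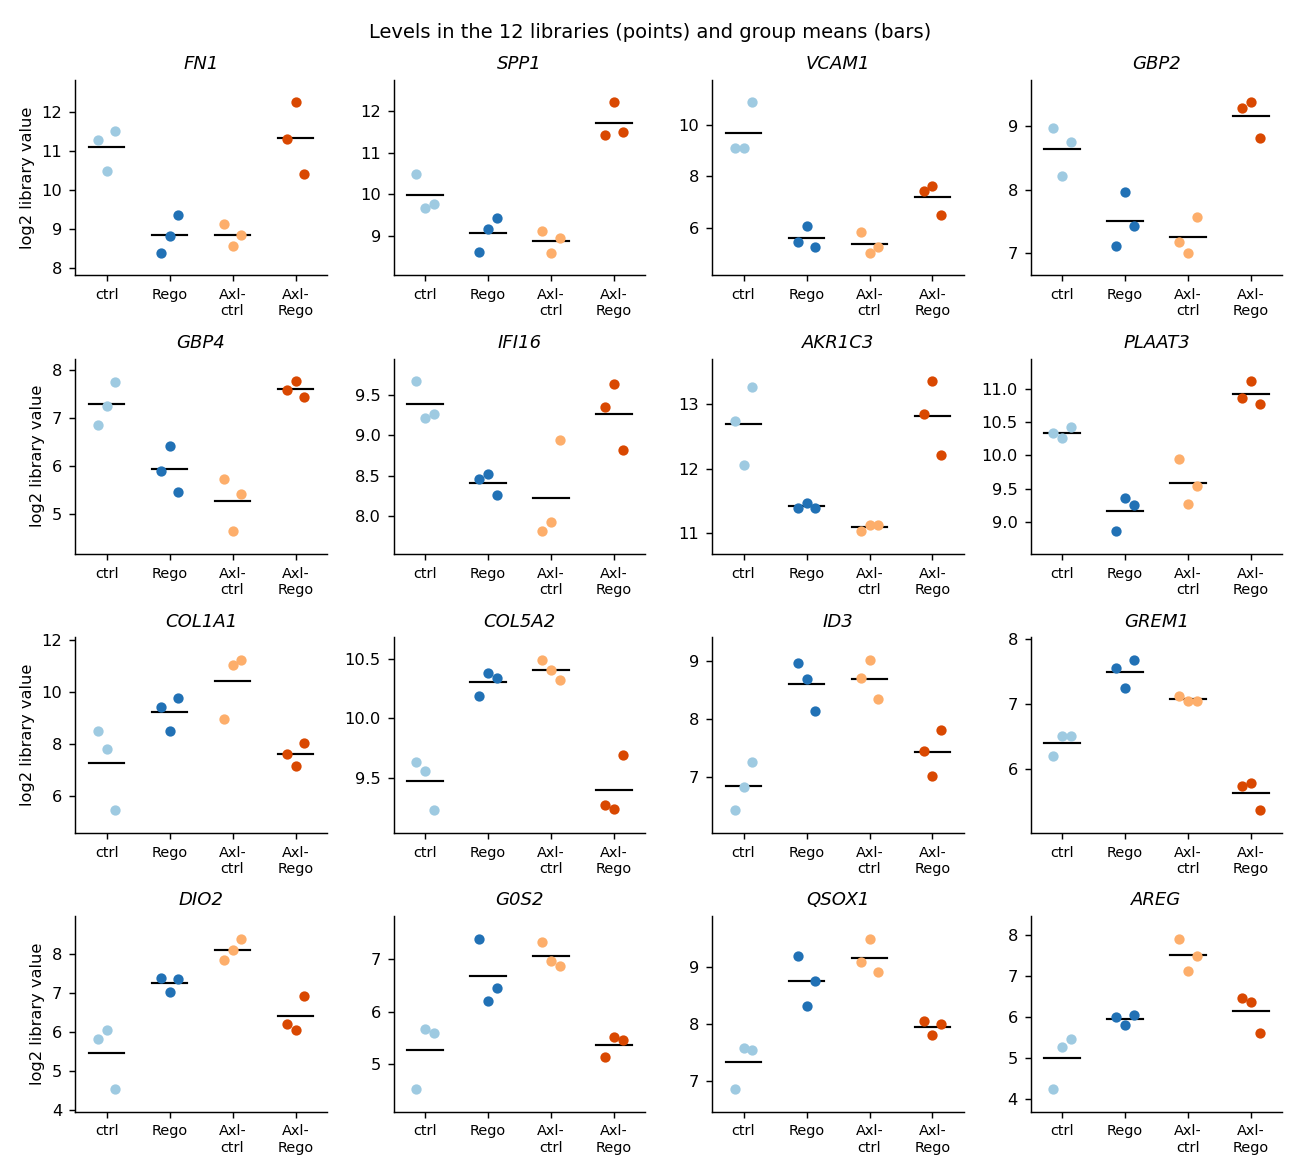
Level of 16 genes in each library, as log2 of the deposited value, with 3 points and a mean bar for SNU449 control (ctrl), resistant SNU449 (Rego), SNU449-Axl- control (Axl- ctrl) and resistant SNU449-Axl- (Axl- Rego). Panels from FN1 to PLAAT3 fell in SNU449 and rose in SNU449-Axl-, and panels from COL1A1 to AREG did the reverse, although the rise in SNU449 was not called for COL1A1 and AREG.

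Among growth factors, AREG and EREG, ligands of the EGF receptor, differed in their effects. AREG, amphiregulin, had 4.25, 5.29 and 5.46 (SNU449 control), 6.0, 5.81 and 6.04 (resistant SNU449), 7.91, 7.13 and 7.49 (SNU449-Axl- control) and 6.48, 6.38 and 5.61 (resistant SNU449-Axl-). SNU449-Axl- control libraries were the highest, SNU449 control the lowest, and the groups of either line did not overlap. The effects were 0.95 in SNU449 and −1.36 in SNU449-Axl-, and the difference of 2.31 (95% interval 1.41 to 3.20, adjusted p 0.00315) was called although the rise in SNU449 was not (adjusted p 0.0615). EREG, epiregulin, had 5.95, 6.21 and 7.11 (SNU449 control), 6.49, 6.75 and 6.0 (resistant SNU449), 8.82, 8.12 and 9.04 (SNU449-Axl- control) and 6.63, 6.82 and 5.75 (resistant SNU449-Axl-). It was high only in SNU449-Axl- control, and fell there with an effect of −2.26 while SNU449 stayed level, for a difference of 2.25 (95% interval 1.28 to 3.23, adjusted p 0.00705). LRIG1, a membrane protein that promotes degradation of ErbB receptors, rose from 5.09, 5.49 and 5.58 in SNU449 control to 6.43, 6.60 and 6.41 in resistant SNU449. In SNU449-Axl- it moved by −0.29, and the difference was 1.38 (95% interval 0.78 to 1.98, adjusted p 0.00706). Among 14 tested ErbB receptors, ligands and inhibitors (18 listed), 5 were called (35.7%, against 5.87% of all genes). Of these 4 were higher and 1 lower in SNU449, and the median difference of the list was −0.01. The gene called lower was TGFA, another ligand, near the floor in all but the SNU449 control libraries, with −0.93 and 0.00 (adjusted p 0.0446), a call that ended in 11 of 12 omissions. The only receptor called was ERBB4, with 1.12 and 0.10 (adjusted p 0.0266), a call that ended in 6 omissions and after spike-in centring. The number of genes called in the list was 3 without replicate 2 or 3 of resistant SNU449, without replicate 1 or 2 of resistant SNU449-Axl-, and at a mean normalized count of at least 10.

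GAS6, the ligand of AXL, had effects of 0.75 and −0.55 and a called difference (adjusted p 0.0199) that was not called in 6 omissions or after spike-in centring. FGF2, a ligand of FGF receptors, moved by −0.25 and 0.34 and was not called (adjusted p 0.161). With no replicate block its adjusted p was 0.0347, but p-values of that fit are too small.

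Further receptor kinases divided as well. ROR2, a receptor for WNT5A, had 5.73, 6.15 and 6.07 (SNU449 control), 4.46, 4.46 and 4.32 (resistant SNU449), 4.81, 4.86 and 5.00 (SNU449-Axl- control) and 6.0, 5.55 and 5.64 (resistant SNU449-Axl-). SNU449 control and resistant SNU449-Axl- were above the other 2 groups in every library, and the effects were −1.57 in SNU449 and 0.84 in SNU449-Axl- with a difference of −2.41 (95% interval −2.99 to −1.83, adjusted p 3.93e-05). EPHB4, a receptor of ephrin B2, moved by 1.09 and −0.71, and EPHA7, a receptor of A-type ephrins, by 0.08 and −1.58, both with a higher effect in SNU449 (adjusted p 0.00124 and 0.00216). FGFR4, the FGF19 receptor of liver cells, rose only without Axl, by 1.04 against −0.41 (adjusted p of the difference 0.00529). The ERK feedback inhibitor SPRY2 rose only with Axl, by 1.52 against 0.14 (adjusted p 0.0117). In the MAPK output list 3 of 24 genes were called (12.5%, against 5.87% of all genes), all higher in SNU449. After spike-in centring 1 was higher and 2 were lower. The count was 1 without replicate 3 of SNU449-Axl- control or replicate 2 of resistant SNU449-Axl-, and 5 without replicate 3 of SNU449 control, with SPRY2 the only one called in every omission of a library.

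Interferon-stimulated genes had a median effect below 0 in SNU449 and above 0 without Axl, although few passed in both lines. Of 66 listed genes 57 were tested and 16 called (28.1%, against 5.87% of all genes), 1 higher and 15 lower in SNU449. Differences lay below 0 for 48 of 57, against 7972 of 15601 over all genes. In SNU449 16 were called down and 1 up, in SNU449-Axl- 10 up and 1 down, and 5 were opposite. The median effect was −0.20 in SNU449 and 0.28 in SNU449-Axl-, for a median difference of −0.59, below 0 under every scaling and in every omission. The called number was 10 without replicate 1 of SNU449 control or of resistant SNU449, 8 without replicate 2 of SNU449-Axl- control, and 9 without replicate 1 or 2 of resistant SNU449-Axl-. Median deviations of the list from each gene's mean were 0.18, −0.04 and 0.23 (SNU449 control), −0.27, 0.07 and −0.31 (resistant SNU449), −0.18, −0.39 and −0.03 (SNU449-Axl- control) and 0.13, 0.29 and −0.01 (resistant SNU449-Axl-). Replicate 2 departed from its group in SNU449 control and resistant SNU449, so the SNU449 groups overlapped at the level of the list, while the SNU449-Axl- groups came close without overlap.

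Single genes separated more clearly. GBP4 (ENSG00000162654.9, chr1:89181144-89198942), a guanylate-binding GTPase of cell-autonomous immunity, had 6.86, 7.25 and 7.73 (SNU449 control), 5.91, 6.43 and 5.46 (resistant SNU449), 5.73, 4.64 and 5.43 (SNU449-Axl- control) and 7.58, 7.76 and 7.43 (resistant SNU449-Axl-). All SNU449 control and resistant SNU449-Axl- libraries were above all others, and the effects were −1.35 in SNU449 and 2.32 in SNU449-Axl- with a difference of −3.67 (95% interval −4.55 to −2.80, adjusted p 3.82e-05). GBP2, a relative near it on chromosome 1, had 8.98, 8.21 and 8.75 (SNU449 control), 7.12, 7.97 and 7.43 (resistant SNU449), 7.18, 7.01 and 7.58 (SNU449-Axl- control) and 9.29, 9.38 and 8.82 (resistant SNU449-Axl-). The order of groups was the same and no libraries overlapped within a line, with effects of −1.14 in SNU449 and 1.90 in SNU449-Axl- and a difference of −3.04 (95% interval −3.81 to −2.28, adjusted p 6.46e-05). Reads of GBP genes may be shared in part between similar copies, which was not measured, so their separate values are uncertain. GBP3 had −1.07 and 0.23 (adjusted p 0.0339), a call that ended in 9 of 12 omissions.

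IFI16, a nuclear sensor of DNA, had levels of 9.67, 9.22 and 9.27 (SNU449 control), 8.46, 8.52 and 8.26 (resistant SNU449), 7.81, 7.92 and 8.94 (SNU449-Axl- control) and 9.35, 9.64 and 8.82 (resistant SNU449-Axl-). Replicate 3 of SNU449-Axl- control reached the resistant range, so only the SNU449 groups were free of overlap, and the effects were −0.98 in SNU449 and 1.05 in SNU449-Axl- with a difference of −2.02 (95% interval −2.84 to −1.21, adjusted p 0.0041). UBE2L6, the conjugating enzyme for the ubiquitin-like ISG15, had 8.85, 8.59 and 8.81 (SNU449 control), 7.25, 8.05 and 7.66 (resistant SNU449), 7.69, 7.0 and 7.39 (SNU449-Axl- control) and 8.21, 8.37 and 8.14 (resistant SNU449-Axl-). Both lines were free of overlap, with effects of −1.09 in SNU449 and 0.88 in SNU449-Axl- and a difference of −1.97 (95% interval −2.65 to −1.30, adjusted p 0.00115). APOL1, an interferon-induced apolipoprotein, had 10.01, 10.02 and 10.17 (SNU449 control), 5.83, 6.36 and 5.88 (resistant SNU449), 6.99, 6.71 and 7.01 (SNU449-Axl- control) and 7.78, 7.52 and 7.54 (resistant SNU449-Axl-). The fall in SNU449 was far larger than the rise without Axl, −4.04 against 0.71, for a difference of −4.75 (95% interval −5.34 to −4.16, adjusted p 1.04e-08). Reads of APOL genes may likewise be shared between copies. APOL2 and APOL6 moved by −1.80 and −0.52 and by −0.97 and 0.36 (adjusted p of the difference 0.0205 and 0.017), their calls ending in 5 and 4 omissions.

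Other members rose without Axl and moved less with it. IFI44, an interferon-induced antiproliferative protein, moved by −0.21 and 1.40 (adjusted p 0.0181), a call that ended in 3 omissions. DDX60, a helicase of antiviral sensing, moved by −0.41 and 0.97 (adjusted p 0.0244), ending in 6. BST2, tetherin, which holds virions at the membrane, moved by 0.16 and 1.47 (adjusted p 0.0366), ending in 9. IFITM2, a membrane protein that blocks virus entry, was the only listed gene called the other way, with 1.58 and −0.53 and adjusted p 0.00759. Classical targets such as ISG15, OAS1 and MX1 were not called, with differences of −0.10, −0.07 and 0.32.

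The upstream factors below were named after their values were seen. IRF3, which switches on interferon genes after nucleic acid sensing, had 6.30, 6.67 and 6.93 (SNU449 control), 7.36, 7.62 and 7.22 (resistant SNU449), 7.67, 7.35 and 7.47 (SNU449-Axl- control) and 6.66, 6.32 and 6.36 (resistant SNU449-Axl-). It rose in SNU449 and fell without Axl, against the direction of the stimulated genes, with effects of 0.76 in SNU449 and −1.05 in SNU449-Axl- and a difference of 1.81 (95% interval 1.19 to 2.44, adjusted p 0.00124). IRF1, a factor that interferon itself induces, moved by −0.92 and 0.26 and was not called (adjusted p 0.063), but was after spike-in centring (adjusted p 0.0204). With no replicate block, where p-values are too small, its adjusted p was 0.0332. STAT2 and IRF9, transcription factors of interferon signalling, had differences of −0.28 and −0.35, not called (adjusted p 0.727 and 0.658). IRF3, on chromosome 19, was thus the only one of these 4 with a difference above 0. TLR3, an endosomal receptor of double-stranded RNA, had effects of −0.78 in SNU449 and 1.01 in SNU449-Axl- (adjusted p of the difference 0.00228), and IL15, a cytokine that sustains natural killer cells, of −0.81 in SNU449 and 1.12 in SNU449-Axl- (adjusted p 2.71e-04). SNU449 control and resistant libraries of TLR3 touched at 5.58, and those of IL15 did not overlap.

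Promoters of 5 genes with a called difference below 0, picked with their values known from those that hold the motif, are printed to show where the interferon-stimulated response element lies in them. That these 5 hold it follows from the choice. Of these, GBP4 alone had both effects called, GBP3 and B2M had the one in SNU449, and IFI44 and DDX60 the one in SNU449-Axl-. The motif searched was GAAA, any 2 bases and GAAA again, on both strands, in windows of 250 bases before to 50 after a gene's start, which RefSeq gives for GRCh38.p14. It was present in 3.57% of 35116 promoters, in 35 of the 56 promoters (62.5%) of the 43 interferon-stimulated genes with an entry, and in 10 of the 14 promoters of the 10 of those called lower in SNU449, where 8 genes had it and 2 did not. Of the 29 promoters of 24 antigen presentation genes 11 (37.9%) held it, among them those of 3 of the 5 called lower that have an entry. The windows below are GBP4 (chr1:89198893-89199192, minus strand), GBP3 (chr1:89022817-89023116, minus), IFI44 (chr1:78649539-78649838, plus), DDX60 (chr4:168318703-168319002, minus) and B2M (chr15:44711267-44711566, plus), 5′ to 3′ along the gene, with matches in capitals. A match describes letters in the window, and binding was not measured.
GBP4: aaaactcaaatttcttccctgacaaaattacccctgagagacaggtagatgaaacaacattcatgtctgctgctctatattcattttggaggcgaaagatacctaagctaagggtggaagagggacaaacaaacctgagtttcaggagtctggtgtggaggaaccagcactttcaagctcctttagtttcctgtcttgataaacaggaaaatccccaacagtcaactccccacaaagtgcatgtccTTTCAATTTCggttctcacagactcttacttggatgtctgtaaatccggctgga
GBP3: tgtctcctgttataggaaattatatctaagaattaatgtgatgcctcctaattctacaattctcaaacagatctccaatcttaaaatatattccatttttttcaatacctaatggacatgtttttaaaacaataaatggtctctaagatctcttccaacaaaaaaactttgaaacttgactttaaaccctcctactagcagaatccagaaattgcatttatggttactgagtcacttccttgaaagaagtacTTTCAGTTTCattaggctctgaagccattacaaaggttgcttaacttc
IFI44: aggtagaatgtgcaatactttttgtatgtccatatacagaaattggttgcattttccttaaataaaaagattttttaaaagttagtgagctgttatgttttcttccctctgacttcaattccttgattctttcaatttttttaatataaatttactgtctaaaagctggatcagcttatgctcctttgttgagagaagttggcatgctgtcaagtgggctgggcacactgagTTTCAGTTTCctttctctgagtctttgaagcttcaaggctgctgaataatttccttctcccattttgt
DDX60: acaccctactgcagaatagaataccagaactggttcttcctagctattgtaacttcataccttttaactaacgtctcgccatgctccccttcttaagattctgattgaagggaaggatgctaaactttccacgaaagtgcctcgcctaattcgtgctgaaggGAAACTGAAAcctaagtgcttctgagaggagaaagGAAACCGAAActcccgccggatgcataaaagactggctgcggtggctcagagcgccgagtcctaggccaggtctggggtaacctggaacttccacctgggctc
B2M: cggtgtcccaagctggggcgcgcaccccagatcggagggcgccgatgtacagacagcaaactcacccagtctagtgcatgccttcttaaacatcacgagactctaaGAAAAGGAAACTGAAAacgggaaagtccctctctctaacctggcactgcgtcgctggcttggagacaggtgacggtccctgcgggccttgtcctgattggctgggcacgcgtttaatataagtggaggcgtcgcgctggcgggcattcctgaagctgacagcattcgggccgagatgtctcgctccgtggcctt

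Antigen presentation genes with a called difference were mostly lower in SNU449. Of 35 listed genes 29 were tested and 7 called (24.1%, against 5.87% of all genes), 1 higher and 6 lower in SNU449. Medians were −0.24 in SNU449 and 0.17 in SNU449-Axl-, and the median difference of −0.28 kept its sign under every scaling. Called effects were 5 down and 0 up in SNU449, and 1 down and 1 up in SNU449-Axl-. Median deviations of the list were 0.10, 0.16 and 0.19 (SNU449 control), −0.11, 0.12 and −0.17 (resistant SNU449), −0.02, −0.32 and −0.27 (SNU449-Axl- control) and 0.02, 0.04 and −0.02 (resistant SNU449-Axl-). Replicate 2 of resistant SNU449 lay within its control range, and in SNU449-Axl- replicate 1 of the control met the lowest resistant library. PSMB9, a catalytic subunit of the immunoproteasome, had 8.85, 8.64 and 9.11 (SNU449 control), 7.29, 8.09 and 7.64 (resistant SNU449), 8.11, 7.39 and 7.38 (SNU449-Axl- control) and 7.96, 8.09 and 8.09 (resistant SNU449-Axl-). SNU449 control was above every other library, and the SNU449-Axl- groups overlapped, with effects of −1.19 in SNU449 and 0.42 in SNU449-Axl- and a difference of −1.61 (95% interval −2.32 to −0.90, adjusted p 0.00805). PSMB8, its partner subunit, moved by −1.27 and 0.25 (adjusted p 0.0113), and ERAP1, the peptidase that trims peptides for loading, by −0.90 and 0.49 (adjusted p 0.00464). B2M, the light chain of class I molecules, had 11.28, 11.23 and 11.81 (SNU449 control), 10.75, 10.66 and 10.58 (resistant SNU449), 10.92, 10.74 and 10.40 (SNU449-Axl- control) and 11, 11.33 and 11.17 (resistant SNU449-Axl-). Libraries of each line did not overlap, the effects were −0.78 in SNU449 and 0.48 in SNU449-Axl-, and the difference of −1.26 (95% interval −1.86 to −0.65, adjusted p 0.0135) lost its call without replicate 2 of resistant SNU449-Axl-. CALR, a chaperone of class I folding on chromosome 19, was the gene called higher in SNU449, with 0.38 and −0.89 (adjusted p 0.00522).

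NRF2 targets and antioxidant enzymes likewise had medians below 0 in SNU449 and above 0 without Axl. Of 56 listed genes 50 were tested and 16 called (32.0%, against 5.87% of all genes), 1 higher and 15 lower in SNU449. Differences lay below 0 for 38 of 50. Medians were −0.28 in SNU449 and 0.39 in SNU449-Axl-, with a median difference of −0.54 that stayed below 0 under every scaling, and 12 to 19 genes were called when a library was omitted. In SNU449 10 were called down and 4 up, in SNU449-Axl- 7 up and 2 down, and 3 were opposite. Median deviations of the list were 0.15, 0.01 and 0.17 (SNU449 control), −0.17, −0.27 and −0.02 (resistant SNU449), 0.02, −0.27 and −0.31 (SNU449-Axl- control) and −0.02, 0.42 and 0.19 (resistant SNU449-Axl-). The SNU449 groups did not overlap, while replicate 1 of SNU449-Axl- control was above replicate 1 of its resistant cells, and replicate 2 of these was the highest. AKR1C3 (ENSG00000196139.14, chr10:5035354-5107686), a ketosteroid and prostaglandin reductase, had 12.74, 12.06 and 13.27 (SNU449 control), 11.39, 11.47 and 11.39 (resistant SNU449), 11.03, 11.12 and 11.13 (SNU449-Axl- control) and 12.85, 13.36 and 12.22 (resistant SNU449-Axl-). SNU449 control and resistant SNU449-Axl- were above the other groups in every library. The effects were −1.27 in SNU449 and 1.72 in SNU449-Axl-, with a difference of −2.99 (95% interval −3.82 to −2.16, adjusted p 1.83e-04). AKR1C1 and AKR1C2 share most of their sequence and so part of their reads, which leaves their separate values uncertain. They moved by −0.61 and 1.34 and by −0.77 and 0.99 (adjusted p 0.00769 and 0.00249).

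AKR1B10, a reductase of retinal and lipid aldehydes that is often raised in HCC, had 7.04, 6.83 and 6.78 (SNU449 control), 6.94, 6.83 and 7.12 (resistant SNU449), 6.69, 5.91 and 6.51 (SNU449-Axl- control) and 9.34, 10.45 and 9.62 (resistant SNU449-Axl-). Only resistant SNU449-Axl- was high, and SNU449 did not move, with effects of 0.08 in SNU449 and 3.44 in SNU449-Axl- and a difference of −3.36 (95% interval −4.13 to −2.58, adjusted p 3.51e-05). TXN, thioredoxin, had 11.85, 12.32 and 12.03 (SNU449 control), 11.74, 11.08 and 11.63 (resistant SNU449), 11.12, 10.67 and 10.49 (SNU449-Axl- control) and 11.64, 12.27 and 12.19 (resistant SNU449-Axl-). Its rise without Axl was called and its fall in SNU449 was not, with effects of −0.58 and 1.27 and a difference of −1.86 (95% interval −2.56 to −1.15, adjusted p 0.00273). TXNRD1, the reductase that recharges thioredoxin, had 11.54, 11.79 and 11.88 (SNU449 control), 10.59, 10.17 and 10.56 (resistant SNU449), 10.87, 10.52 and 10.52 (SNU449-Axl- control) and 10.85, 11.37 and 10.89 (resistant SNU449-Axl-). Here the fall in SNU449 was the called part, with effects of −1.30 and 0.40 and a difference of −1.70 (95% interval −2.31 to −1.09, adjusted p 0.00169). PTGR1, a prostaglandin and alkenal reductase outside the list, was opposite with −1.13 and 1.51 (adjusted p 1.95e-04).

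Further called genes, most of them named after their values were seen, act on glutathione. GCLC, the catalytic subunit of glutamate-cysteine ligase, moved by −0.28 and 1.40 and its modifier GCLM by −0.78 and 0.58 (adjusted p 0.0134 and 0.0197). GSR, which reduces oxidized glutathione, moved by −1.05 and 0.42, and SLC7A11, the cystine importer, by −0.72 and 1.24 (adjusted p 0.00759 and 0.0339). The GCLC call ended in 1 omission, that of GCLM in 6 and that of SLC7A11 in 8. ABCC2, which exports glutathione conjugates, moved by −0.92 and 0.82 (adjusted p 0.00477). PRDX2, a peroxiredoxin on chromosome 19, ran against the list, with 6.49, 6.58 and 6.57 (SNU449 control), 7.14, 7.02 and 7.77 (resistant SNU449), 7.91, 7.97 and 7.44 (SNU449-Axl- control) and 6.85, 6.81 and 6.58 (resistant SNU449-Axl-). It was higher in resistant SNU449 and in SNU449-Axl- control than in the other groups, with effects of 0.76 in SNU449 and −1.03 in SNU449-Axl- and a difference of 1.79 (95% interval 1.13 to 2.45, adjusted p 0.00213). The factor NFE2L2 itself moved by −0.34 and 0.63 and its inhibitor KEAP1 by 0.17 and −0.57, neither called (adjusted p 0.0757 and 0.155). NFE2L2 was called after spike-in centring (adjusted p 0.0224). With no replicate block, where p-values are too small, its adjusted p was 0.0322. A core of the antioxidant response element, TGACNNNGC on both strands, was found in 18.9% of the promoters of the list against 13.3% of all promoters.

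**Figure D3:**
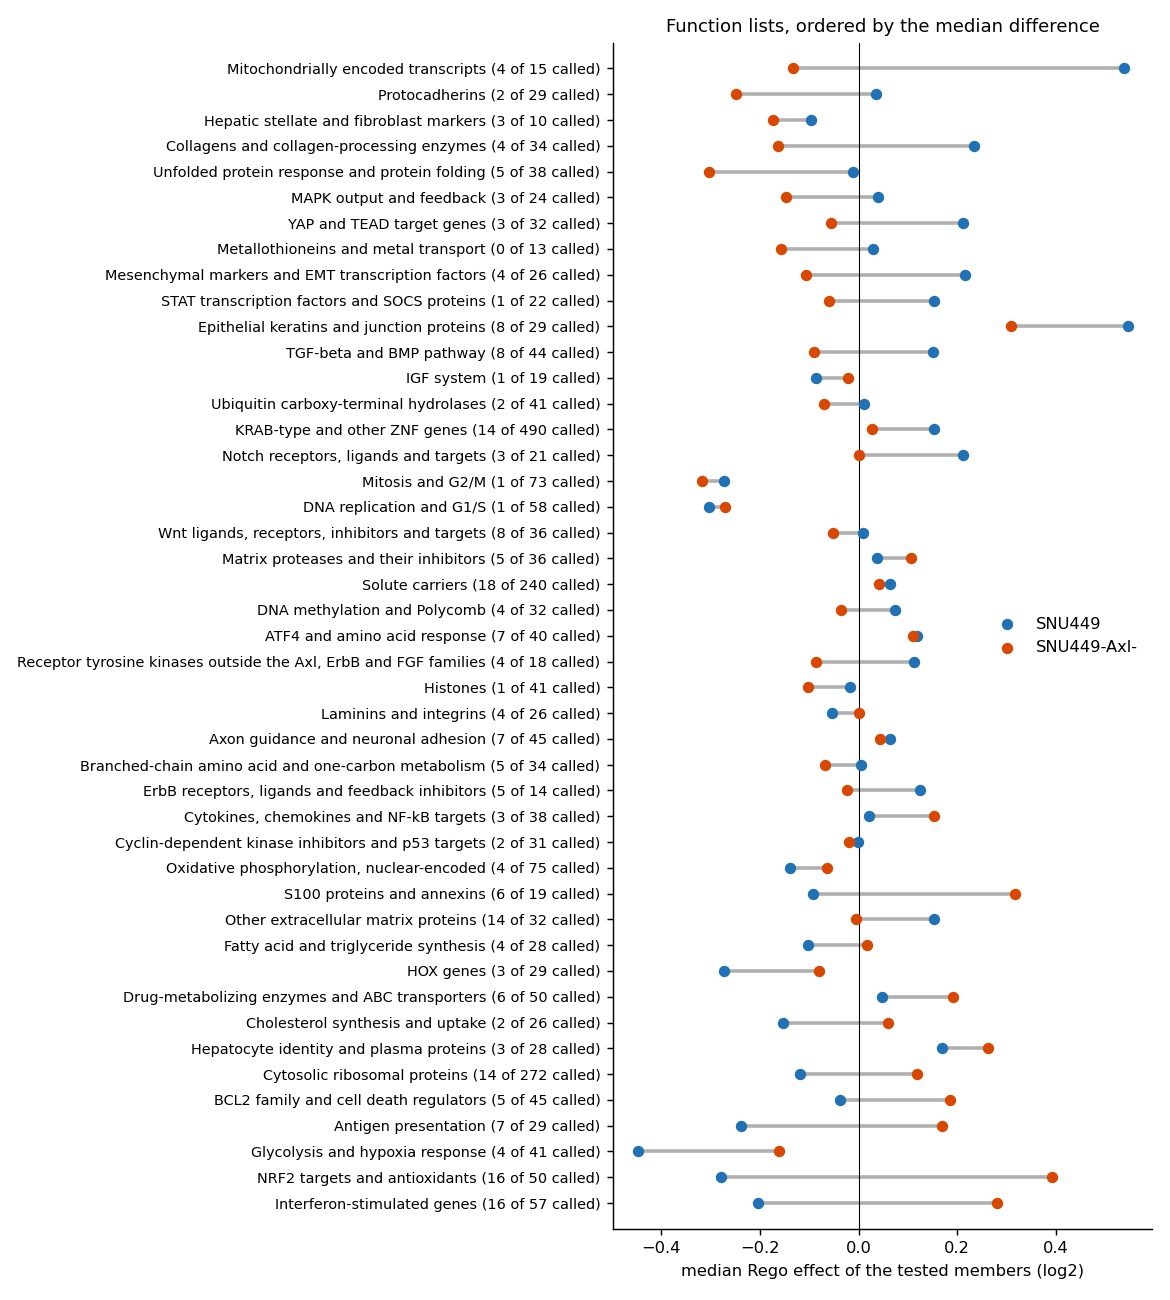
Median Rego effect, in log2, of the tested members of each function list with at least 10 of them, in SNU449 (blue) and SNU449-Axl- (orange), ordered by the median difference. Interferon-stimulated genes and NRF2 targets lie at the bottom, with median differences of −0.59 and −0.54.

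BMP signalling held genes with the reverse pattern. ID3 (ENSG00000117318.9, chr1:23557926-23559501), a helix-loop-helix inhibitor and direct BMP target, had 6.43, 6.83 and 7.26 (SNU449 control), 8.97, 8.68 and 8.14 (resistant SNU449), 8.71, 9.02 and 8.34 (SNU449-Axl- control) and 7.45, 7.02 and 7.81 (resistant SNU449-Axl-). It was low in SNU449 control, high in resistant SNU449 and SNU449-Axl- control, and lower again in resistant SNU449-Axl-, without overlap in either line. The effects were 1.76 in SNU449 and −1.26 in SNU449-Axl-, with a difference of 3.02 (95% interval 2.21 to 3.83, adjusted p 1.27e-04). GREM1, a secreted BMP antagonist, had 6.19, 6.51 and 6.51 (SNU449 control), 7.55, 7.24 and 7.67 (resistant SNU449), 7.12, 7.04 and 7.03 (SNU449-Axl- control) and 5.73, 5.78 and 5.36 (resistant SNU449-Axl-). Control libraries of SNU449 were below resistant ones and those of SNU449-Axl- above, with effects of 1.08 in SNU449 and −1.44 in SNU449-Axl- and a difference of 2.53 (95% interval 1.93 to 3.12, adjusted p 3.73e-05). BMP4, a ligand, fell without Axl with an effect of −1.54 and moved by 0.76 with it (adjusted p of the difference 0.00165). BMP6, another ligand, moved by 1.28 and −0.59 (adjusted p 9.29e-04).

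GDF15, a stress-induced cytokine on chromosome 19, had 8.30, 7.85 and 8.09 (SNU449 control), 9.92, 10.66 and 10.87 (resistant SNU449), 10.52, 9.26 and 10.23 (SNU449-Axl- control) and 9.67, 10.66 and 9.23 (resistant SNU449-Axl-). It was low only in SNU449 control, with effects of 2.40 and −0.15 and a difference of 2.55 (95% interval 1.52 to 3.58, adjusted p 0.00425). Of 44 genes of the TGF-beta and BMP list 8 were called (18.2%, against 5.87% of all genes), 7 higher and 1 lower in SNU449. The median difference of 0.12 turned to −0.06 after spike-in centring. Without replicate 1 of resistant SNU449, replicate 2 of SNU449-Axl- control or replicate 1 of resistant SNU449-Axl- 5 were called.

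Notch and Wnt genes added further called members. Of 21 Notch genes 3 were called (14.3%, against 5.87% of all genes), all higher in SNU449. Their median difference of 0.09 over the list turned to −0.09 after spike-in centring. HES1, the repressor that Notch induces, had 6.25, 5.49 and 5.25 (SNU449 control), 7.28, 7.43 and 6.78 (resistant SNU449), 5.75, 7.04 and 6.85 (SNU449-Axl- control) and 5.46, 4.75 and 5.83 (resistant SNU449-Axl-). It rose in SNU449 without overlap, and in SNU449-Axl- replicate 1 of the control lay within the resistant range. Effects were 1.50 in SNU449 and −1.20 in SNU449-Axl-, with a difference of 2.70 (95% interval 1.68 to 3.71, adjusted p 0.00249). DNER, a Notch-related membrane ligand, moved by 2.24 and −1.38 (adjusted p 0.00427), with replicate 3 of SNU449 control far below its group at 6.0. WNT7B, a canonical Wnt ligand, had 5.95, 6.13 and 6.11 (SNU449 control), 9.48, 9.77 and 9.32 (resistant SNU449), 9.03, 8.92 and 8.89 (SNU449-Axl- control) and 9.30, 8.97 and 9.45 (resistant SNU449-Axl-). It was low in SNU449 control and high in the 3 other groups, with a rise of 3.46 in SNU449 and a difference of 3.17 (95% interval 2.59 to 3.74, adjusted p 1.72e-06). SFRP1, which sequesters Wnt ligands, was low in resistant SNU449-Axl- alone, with effects of 0.10 and −2.69 (adjusted p 0.00138). RNF43, a ligase that removes Frizzled receptors, rose with Axl, with 1.36 and −0.41 (adjusted p 9.43e-04). Of 36 Wnt genes 8 were called (22.2%, against 5.87% of all genes), 5 higher and 3 lower in SNU449.

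Of 32 YAP and TEAD targets 3 (9.38%, against 5.87% of all genes) were called, all higher in SNU449, and 5 without replicate 3 of SNU449-Axl- control. Medians were 0.21 in SNU449 and −0.06 in SNU449-Axl-, and 7 had a called rise in SNU449. The median difference of 0.24 was 0.06 after spike-in centring, 0.01 without replicate 3 of SNU449 control, 0.09 without replicate 2 of resistant SNU449-Axl- and 0.38 without replicate 1 of SNU449-Axl- control. CCN2, a matricellular YAP target, had 7.48, 7.69 and 6.17 (SNU449 control), 8.72, 8.87 and 9.29 (resistant SNU449), 8.24, 8.04 and 8.26 (SNU449-Axl- control) and 7.58, 7.44 and 8.32 (resistant SNU449-Axl-). SNU449 rose without overlap and the SNU449-Axl- groups overlapped, with effects of 1.85 and −0.40 and a difference of 2.25 (95% interval 1.30 to 3.19, adjusted p 0.00572). NT5E, the ectonucleotidase CD73, moved by 1.27 and −0.91 (adjusted p 0.00166). ANKRD1, a stretch-responsive cofactor, moved by 2.91 and 0.28 (adjusted p 0.0217), losing its call in 2 omissions. TPM1, tropomyosin 1, which binds actin filaments, had 0.75 and −0.85 (adjusted p 0.0038), and TLN2, talin 2, which couples integrins to actin, 1.58 and −0.81 (adjusted p 7.14e-05).

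Keratins and junction genes had medians above 0 in both lines, 0.55 in SNU449 and 0.31 in SNU449-Axl-, where 9 and 5 of 29 had a called rise and none a called fall. The difference was called for 8 (27.6%, against 5.87% of all genes), 6 higher and 2 lower in SNU449. Their median difference of 0.14 turned to −0.04 after spike-in centring. KRT7, a keratin of simple ducts, had 5.21, 4.75 and 4.17 (SNU449 control), 9.44, 8.47 and 9.81 (resistant SNU449), 7.50, 9.68 and 8.24 (SNU449-Axl- control) and 9.31, 8.56 and 9.27 (resistant SNU449-Axl-). It was near the floor in SNU449 control only, and it was already high in SNU449-Axl- control, with effects of 4.53 and 0.57 and a difference of 3.96 (95% interval 2.67 to 5.24, adjusted p 8.19e-04). KRT81, a hair-type keratin whose reads are shared with KRT86, had the same order of groups, with effects of 4.80 and 0.19 (adjusted p 3.53e-05). DSP, desmoplakin of desmosomes, had 5.39, 5.64 and 4.58 (SNU449 control), 4.81, 4.64 and 5.00 (resistant SNU449), 4.64, 4.46 and 5.09 (SNU449-Axl- control) and 7.67, 7.79 and 7.89 (resistant SNU449-Axl-). Only resistant SNU449-Axl- was high, with effects of −0.39 and 3.05 and a difference of −3.44 (95% interval −4.19 to −2.69, adjusted p 1.88e-05). When a library was omitted 4 to 7 genes of the list were called, the fewest without replicate 3 of SNU449-Axl- control or replicate 2 of resistant SNU449-Axl-.

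Further opposite genes had separate functions. They were named by the size of their effects, apart from ANXA1, a list member, and CDH4, named after its values were seen. HLF, a liver-enriched bZIP factor, had 8.35, 8.18 and 9.41 (SNU449 control), 4.46, 4.58 and 4.58 (resistant SNU449), 6.44, 5.64 and 5.13 (SNU449-Axl- control) and 7.07, 7.86 and 7.21 (resistant SNU449-Axl-). It was lost in resistant SNU449, low in SNU449-Axl- control and regained in part in resistant SNU449-Axl-, with effects of −4.11 in SNU449 and 1.64 in SNU449-Axl- and a difference of −5.75 (95% interval −6.73 to −4.77, adjusted p 7.77e-07). CXXC5, a zinc finger protein that restrains Wnt signalling, had 8.95, 8.32 and 9.20 (SNU449 control), 5.04, 5.32 and 5.13 (resistant SNU449), 5.09, 5.00 and 4.70 (SNU449-Axl- control) and 5.81, 6.25 and 5.91 (resistant SNU449-Axl-). Its level in resistant SNU449-Axl- stayed well under that of SNU449 control, with effects of −3.66 and 1.06 and a difference of −4.71 (95% interval −5.41 to −4.02, adjusted p 9.89e-08). DIO2, the deiodinase that activates thyroid hormone, had 5.81, 6.04 and 4.52 (SNU449 control), 7.38, 7.03 and 7.36 (resistant SNU449), 7.83, 8.10 and 8.39 (SNU449-Axl- control) and 6.21, 6.04 and 6.93 (resistant SNU449-Axl-). Its effects were 1.80 in SNU449 and −1.71 in SNU449-Axl-, with no overlap within a line and a difference of 3.51 (95% interval 2.55 to 4.47, adjusted p 1.56e-04).

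G0S2, the inhibitor of adipose triglyceride lipase, had 4.52, 5.67 and 5.58 (SNU449 control), 7.38, 6.21 and 6.44 (resistant SNU449), 7.32, 6.95 and 6.87 (SNU449-Axl- control) and 5.13, 5.52 and 5.46 (resistant SNU449-Axl-). Resistant SNU449 and SNU449-Axl- control were above the other groups in every library, with effects of 1.42 in SNU449 and −1.68 in SNU449-Axl- and a difference of 3.10 (95% interval 2.17 to 4.02, adjusted p 3.61e-04). QSOX1, a secreted sulfhydryl oxidase, moved by 1.42 and −1.21 (adjusted p 1.99e-04). PLAAT3, a phospholipase and acyltransferase, moved by −1.18 and 1.33 (adjusted p 5.41e-05). ANXA1, a phospholipid-binding annexin that dampens inflammation, had 11.30, 11.28 and 11.43 (SNU449 control), 10.40, 10.39 and 10.14 (resistant SNU449), 10.24, 10.00 and 10.05 (SNU449-Axl- control) and 10.91, 11.18 and 11.23 (resistant SNU449-Axl-). Neither line had overlap, and the effects of −1.03 and 1.01 were of nearly equal size with opposite sign, for a difference of −2.04 (95% interval −2.57 to −1.51, adjusted p 9.60e-05). CDH4, R-cadherin, moved by 2.20 and −0.86 and SLCO2B1, an organic anion importer of hepatocytes, by −1.66 and 1.27 (adjusted p 2.01e-05 and 1.56e-04).

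Some of the largest differences were not opposite but confined to 1 line. IGFBP5, a carrier of insulin-like growth factors, had 4.81, 4.58 and 4.52 (SNU449 control), 12.45, 13.35 and 11.80 (resistant SNU449), 4.52, 4.17 and 4.86 (SNU449-Axl- control) and 4.86, 4.52 and 5.49 (resistant SNU449-Axl-). It was near the floor everywhere except in resistant SNU449, and its rise of 7.89 was the largest effect named here. UCHL1, a ubiquitin hydrolase of neurons and some tumours, had 9.98, 10.18 and 10.42 (SNU449 control), 4.39, 4.46 and 4.39 (resistant SNU449), 4.75, 4.46 and 4.39 (SNU449-Axl- control) and 4.39, 4.46 and 4.39 (resistant SNU449-Axl-). It was present in SNU449 control only, so a fall in SNU449-Axl- could not be seen. BCAT1, the cytosolic transaminase of branched-chain amino acids, was likewise at the floor in all SNU449-Axl- libraries, with effects of −4.04 and 0.00 and a difference of −4.04 (95% interval −4.69 to −3.40, adjusted p 3.12e-07).

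Mitochondrially encoded transcripts had differences of 1 sign, with few calls. All 15 tested had a difference above 0, with medians of 0.54 in SNU449 and −0.13 in SNU449-Axl- and a median difference of 0.64 that was 0.46 after spike-in centring. A called rise in SNU449 was seen for 1 gene and a called fall in SNU449-Axl- for 1. Called differences numbered 4 (26.7%, against 5.87% of all genes), and 1 after spike-in centring. That number was 2 without replicate 2 of SNU449-Axl- control, and 1 without replicate 1 or 2 of resistant SNU449-Axl-. MT-ND1, a subunit of complex I, had 13.10, 13.26 and 13.14 (SNU449 control), 13.64, 13.78 and 13.74 (resistant SNU449), 14.30, 14.34 and 13.91 (SNU449-Axl- control) and 13.34, 13 and 13.60 (resistant SNU449-Axl-). Resistant libraries were above control ones in SNU449 and below them in SNU449-Axl-, with effects of 0.56 and −0.87 and a difference of 1.43 (95% interval 0.84 to 2.02, adjusted p 0.00477). Of 75 nuclear genes of oxidative phosphorylation 4 were called (5.33%, near the 5.87% of all genes), with medians of −0.14 in SNU449 and −0.06 in SNU449-Axl-. At most 2 were called without replicate 1 or 2 of SNU449 control, of SNU449-Axl- control or of resistant SNU449-Axl-, and none without replicate 2 of resistant SNU449.

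The list of the unfolded protein response and protein folding had medians of −0.01 in SNU449 and −0.30 in SNU449-Axl-, with a median difference above 0 under every scaling. Of its 38 genes 5 were called (13.2%, against 5.87% of all genes), all higher in SNU449. In SNU449-Axl- 5 had a called fall. After spike-in centring 3 were called, 2 higher and 1 lower, and 3 without replicate 2 of resistant SNU449 or of resistant SNU449-Axl-. DNAJB11, a cochaperone of BiP, moved by 0.25 and −0.87 (adjusted p 0.0134, not called without replicate 2 of resistant SNU449-Axl- or after spike-in centring), and HSPA1A, the inducible cytosolic HSP70, by 0.97 and −0.28 (adjusted p 0.0113).

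Few proliferation genes were called. Medians were −0.30 in SNU449 and −0.27 in SNU449-Axl- over 58 DNA replication genes and −0.27 in SNU449 and −0.32 in SNU449-Axl- over 73 mitosis genes. In each list 1 gene was called, a share of 1.72% and 1.37% against 5.87% of all genes. Called numbers were 0 to 2 when a library was omitted. Median differences of 0.08 in each list became −0.10 after spike-in centring, and ranged from −0.16 to 0.18 and from −0.12 to 0.29 over the omissions. Glycolysis and hypoxia genes had medians of −0.45 in SNU449 and −0.16 in SNU449-Axl-, with 11 called down and 1 up in SNU449 and 2 down and 1 up in SNU449-Axl-. The difference was called for 4 of 41, 9.76% against 5.87% of all genes (2 without replicate 2 of resistant SNU449-Axl-, and 6 after spike-in centring). PDK1, a kinase that inhibits pyruvate dehydrogenase, fell only with Axl, by −1.52 and 0.01 (adjusted p 0.0095). EGLN3, a prolyl hydroxylase of the hypoxia factor, rose only with Axl, by 1.95 and −0.20 (adjusted p 0.00288).

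Differences were also unevenly spread over chromosomes, which the choice of genes did not use. On chromosome 19, which carries AXL, 176 of 1080 genes (16.3%) were called, 168 higher in SNU449, so 6.92% of the tested genes held 36.4% of those called higher. Their median effect was 0.32 in SNU449 and −0.13 in SNU449-Axl-, and the median difference was 0.47 (0.29 after spike-in centring, with 68 called higher and 9 lower). Median deviations of the chromosome from each gene's mean were −0.16, −0.17 and −0.14 (SNU449 control), 0.14, 0.18 and 0.22 (resistant SNU449), 0.10, 0.07 and −0.02 (SNU449-Axl- control) and −0.10, −0.09 and −0.08 (resistant SNU449-Axl-). SNU449 control was lowest and resistant SNU449 highest in every library, and all resistant SNU449-Axl- libraries were below all SNU449-Axl- control libraries. The median was above 0 in all 6 bins of 10 megabases, from 0.11 to 0.60. Called genes on it numbered 92 without replicate 2 of SNU449-Axl- control, and 102, 98 and 113 without replicates 1, 2 and 3 of resistant SNU449-Axl-, with medians from 0.44 to 0.49 over all omissions.

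Chromosomes 4 and 9 showed the reverse. On chromosome 4, 76 of 577 genes (13.2%) were called, 67 of them lower in SNU449, and on chromosome 9, 53 of 600 (8.83%), all lower. The median difference was −0.35 on either one, and −0.53 after spike-in centring, with every bin below 0. Median deviations on chromosome 4 were 0.06, 0.07 and 0.11 (SNU449 control), 0.01, 0.00 and −0.03 (resistant SNU449), −0.19, −0.23 and −0.17 (SNU449-Axl- control) and 0.08, 0.14 and 0.06 (resistant SNU449-Axl-). SNU449-Axl- control was below all others there. Median deviations on chromosome 9 were 0.17, 0.18 and −0.10 (SNU449 control), −0.01, −0.01 and 0.08 (resistant SNU449), −0.24, −0.21 and −0.17 (SNU449-Axl- control) and 0.07, 0.04 and 0.18 (resistant SNU449-Axl-). Replicate 3 of SNU449 control was far below the other 2 of its group, although all 3 came from 1 cell population. Called genes ranged from 37 to 70 on chromosome 4 and from 23 to 80 on chromosome 9 when a library was omitted, the fewest without replicate 2 of resistant SNU449-Axl- and without replicate 2 of SNU449-Axl- control, and 80 without replicate 3 of SNU449 control.

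Medians on the 20 other nuclear chromosomes lay between −0.14 and 0.08, with 1.94% to 7.14% of genes called, while their bins ranged from −0.41 to 0.50. On chromosome 5 the 4 bins with at least 20 genes in the first 50 megabases had medians of 0.25 to 0.50, and 11 of the 12 beyond lay below 0. Chromosomes 4, 9 and 19 held 305 of the 916 called genes and 24 of the 72 opposite ones, and on the others 611 genes (4.58%) were called and 48 were opposite. All 12 opposite genes of chromosome 19 rose in SNU449, among them IRF3, PRDX2 and SMARCA4, the ATPase of the BAF chromatin remodeller. SMARCA4 had 9.96, 9.85 and 9.65 (SNU449 control), 10.66, 10.73 and 10.71 (resistant SNU449), 10.43, 10.58 and 10.67 (SNU449-Axl- control) and 9.74, 9.63 and 9.77 (resistant SNU449-Axl-). Each line was free of overlap, with effects of 0.88 in SNU449 and −0.85 in SNU449-Axl- and a difference of 1.73 (95% interval 1.21 to 2.24, adjusted p 3.62e-04). All 12 opposite genes of chromosomes 4 and 9 fell in SNU449, among them SPP1, IL15, TLR3, ANXA1, ROR2 and PTGR1. The interferon and NRF2 lists kept median differences of −0.51 and −0.54 on the remaining chromosomes. Copy number was not measured, and its part in these shifts was not tested.

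**Figure D4:**
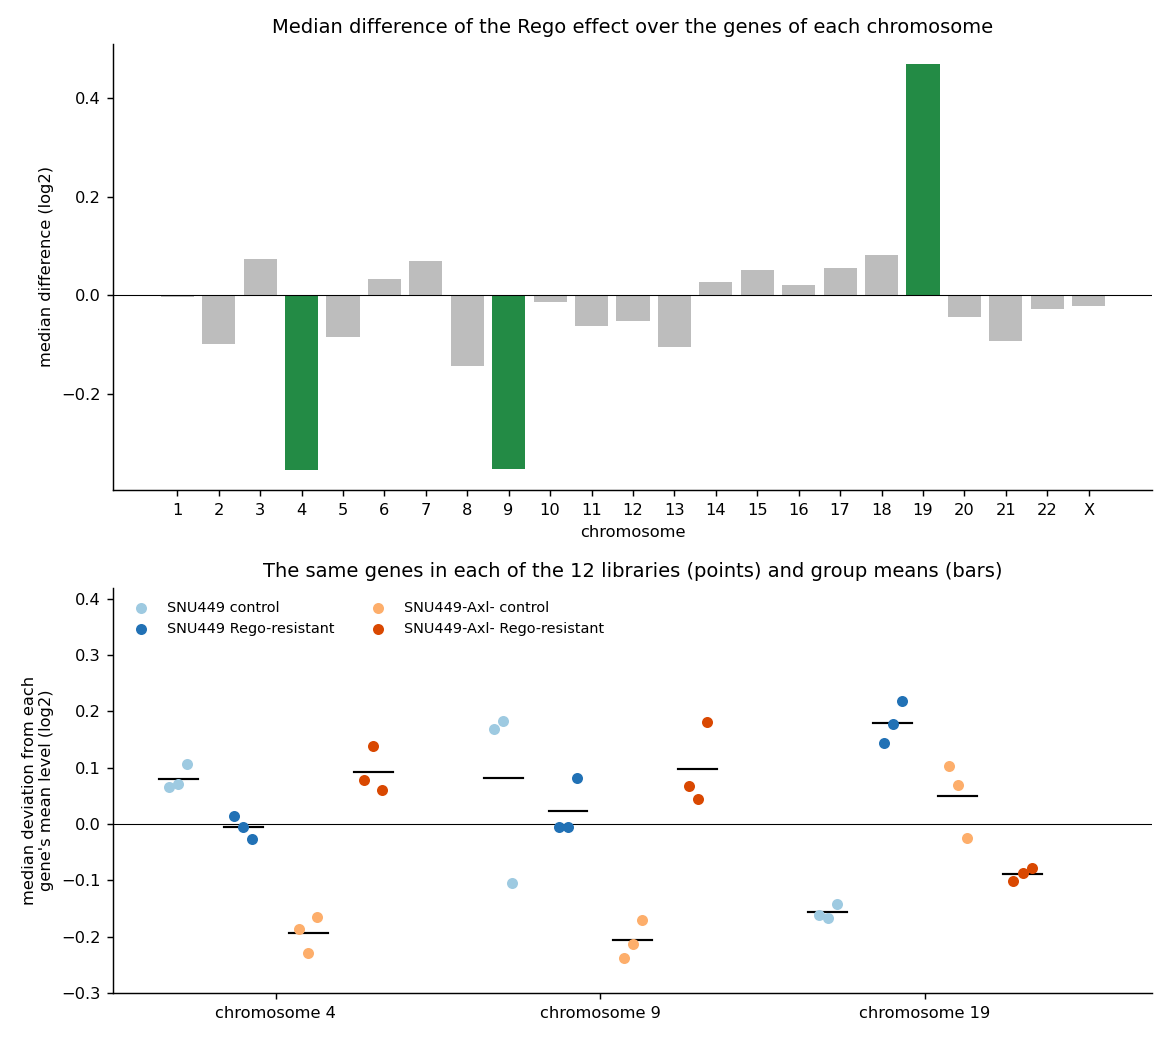
Top, median difference of the Rego effect (log2) over the tested genes of each chromosome, with chromosomes 4, 9 and 19 in green at −0.35, −0.35 and 0.47. Bottom, median deviation of their genes from each gene's mean level in each of 12 libraries, with bars at group means.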

How the data were processed

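According to the submitters' processing notes, reads were trimmed with cutadapt 4.0 and aligned with STAR 2.5.3a, and the authors computed DESeq2 statistics. The deposited signal values are mean normalized counts over a table's libraries, summing to 4159387 to 4916825 over 8 tables. The deposited score values per library are rounded variance-stabilized counts, from which the authors had removed the effect of the preparation date with limma removeBatchEffect according to the paper's methods. Their lowest value is 12. The date of each library is not given in the sources used here. The deposited fold changes, p and adjusted p per pair of groups were not used. Total counts per library are unknown.

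The table with both backgrounds was used. The log2 of each value was fitted over 15601 genes with limma 3.58.1 (R 4.3.3), with 4 groups and the replicate number as block, eBayes with a mean-variance trend, and Benjamini-Hochberg adjustment over all genes. A gene was called at an adjusted p under 0.05, and opposite where both Rego effects and their difference were called with effects of unequal sign. No pseudocount was added.

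Members and lists were chosen with earlier results of these data known. The 51 function lists are described by counts and medians. Named genes were AXL, GAS6, TYRO3, MERTK, EGFR, ERBB2, ERBB3, ERBB4 and FGF2, the 8 largest differences each way, the 12 opposite genes with the largest smaller effect each way, up to 4 called members each way of each list, and genes added after their values were seen (IRF3, STAT2, IRF1, IRF9, NFE2L2, KEAP1, IL15, TLR3, IFI44, DDX60, GBP3, TXNRD1, TXN, GCLM, AKR1C2, SMARCA4, PLAAT4, NR2F6, RFXANK, UBE2L6, GPC3, BST2, APOL2, APOL6, GCLC, GSR, BMP6, MATN2, TLN2, CDH4, PTGR1, RPS6, NCAM2, SEMA3E), 226 in all. A further gene looked at with these is not reported here. Further called or opposite members of lists were also named after their values were seen. Promoters came from RefSeq (GRCh38.p14). Tables and figures were made with Python 3.11.15, numpy 2.4.6, pandas 2.3.3, scipy 1.17.1 and matplotlib 3.10.9.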

Additional observations from a re-analysis of the deposited data

Results flagged for a closer look

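The 8 largest positive differences of the Rego effect, SNU449 minus SNU449-Axl-, were those of IGFBP5 (7.45), COL1A1 (4.78), KRT81 (4.61), KRT7 (3.96), DNER (3.62), PCDH9 (3.59), DIO2 (3.51) and SLC14A1 (3.40). PCDH9, a protocadherin, was at 7.62, 7.69 and 9.40 in SNU449-Axl- control and near the floor in all other libraries. The 8 largest negative differences were those of VCAM1 (−5.91), HLF (−5.75), UCHL1 (−5.66), APOL1 (−4.75), CXXC5 (−4.71), FN1 (−4.71), BCAT1 (−4.04) and SPP1 (−3.72).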

How the results depend on the processing

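The number of genes with a different Rego effect was 916, and 868 to 919 under a pseudocount of 1, a mean normalized count of at least 10, upper-quartile rescaling, spike-in centring, the second 12-library table and a fit with no mean-variance trend. Opposite genes numbered 72, and 66 to 72 under the same settings. Alike counts did not mean the same genes after spike-in centring. There 683 of the 897 called genes and 53 of the 66 opposite ones were also those of the main fit. With no replicate block 1827 genes were called and 195 were opposite. Only 0.0466% of the residual variance lay between replicate numbers in the deposited, batch-corrected values, so the likeness of same-numbered libraries could not be assessed. For the same reason p-values of the fit with no block are too small. A block within control and within resistant libraries, an alternative chosen after the data were seen, gave 1108.

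Omitting a single library left 522 to 924 called and 22 to 83 opposite. Omitting all libraries of a replicate number left 223 and 14 (replicate 1), 112 and 7 (replicate 2), and 745 and 65 (replicate 3). Of 214 named genes called, 40 lost their call after spike-in centring and none changed direction in any setting. Without replicate 2 of resistant SNU449-Axl- 71 lost it, the most for a single library. Without all libraries of replicate numbers 1 and 2, 129 and 159 lost it.

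Each group is 1 cell population with technical triplicates, so differences between populations and effects of Axl cannot be told apart. Variance-stabilized values compress differences near the floor. Neither protein nor copy number was measured.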

Other observations

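Single genes of neural adhesion and drug handling are given here. NCAM2, a neural adhesion molecule, moved by −2.04 and 0.45 in SNU449 and SNU449-Axl- (adjusted p of the difference 3.51e-05), and SEMA3E, a repulsive guidance ligand, by −1.90 and 0.52 (adjusted p 1.33e-04). TENM4, a teneurin that joins cells, was opposite with 0.91 and −0.95 (adjusted p 0.00105). Of 45 axon guidance genes 7 were called (15.6%, against 5.87% of all genes), 2 higher and 5 lower in SNU449. CYP1B1, a cytochrome that oxidizes hydrocarbons and estrogens, had 9.63, 9.33 and 9.20 (SNU449 control), 8.54, 8.08 and 8.52 (resistant SNU449), 7.43, 7.76 and 8.69 (SNU449-Axl- control) and 9.79, 10.21 and 8.97 (resistant SNU449-Axl-). On average it was lowest in SNU449-Axl- control and highest in resistant SNU449-Axl-, with no overlap within a line, effects of −1.01 and 1.70 and a difference of −2.71 (95% interval −3.63 to −1.78, adjusted p 0.00113). ABCG2, a drug efflux pump, rose without Axl, with −0.14 and 1.09 (adjusted p 0.0193), a call that ended in 5 omissions. Of 50 drug-metabolizing enzymes and ABC transporters 6 (12.0%, against 5.87% of all genes) were called, 1 higher and 5 lower in SNU449. That number was 3 without replicate 1 of resistant SNU449 or replicate 2 of resistant SNU449-Axl-, and 2 without replicate 2 of SNU449-Axl- control.

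Of the list of cell death regulators 3 genes of inflammatory death were picked. CASP1, the inflammasome protease, moved by −1.20 and 0.57 (adjusted p 0.0179), CASP4, a sensor of bacterial lipopolysaccharide, by −1.15 and 0.12 (adjusted p 0.0329), and GSDME, a pore-forming gasdermin, by −0.75 and 0.43 (adjusted p 0.0133). Their calls ended in 4, 8 and 1 omissions. Of the 45 tested genes of that list 5 were called (11.1%, against 5.87% of all genes), 1 higher and 4 lower in SNU449. That number was 2 without replicate 1 of resistant SNU449, and 3 without replicate 2 or 3 of SNU449-Axl- control or replicate 2 of resistant SNU449-Axl-. Among plasma proteins FGB, a fibrinogen chain, moved by 0.12 and 2.51 and RBP4, the retinol carrier, by 0.73 and 2.21 (adjusted p 0.0137 and 0.0135), their calls ending in 1 and 3 omissions. Of 28 hepatocyte and plasma protein genes 3 were called (10.7%, against 5.87% of all genes), 1 higher and 2 lower in SNU449. That number was 5 without replicate 2 of SNU449 control, 1 without replicate 2 of SNU449-Axl- control and 0 without replicate 2 of resistant SNU449-Axl-. RPS6, a ribosomal protein on chromosome 9, was opposite with −0.64 and 0.73 (adjusted p 0.00262). Reads of ribosomal protein genes are shared with pseudogenes, so that value is uncertain.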
